A study of Bos taurus with 16 samples.

Results

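The comparison sets endometrium, the inner lining of the uterus, on day 18 after timed artificial insemination against endometrium on day 5. Its members are the 8 libraries that the labels give to these days, 4 of day 18 and 4 of day 5, out of 16 libraries in the series. The other 8 libraries, 4 each of days 10 and 14, enter where the middle of the course is needed and in the shared estimate of the spread between libraries. Each library is poly(A)-captured RNA of an endometrial biopsy, sequenced as a stranded library.

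All animals were virgin Holstein heifers of at least 7 months and at least 340 kg, sexually mature and not lactating. Every heifer on either day had received the same Co-synch protocol of 5 days. It consisted of a GnRH analog (Fertagyl) with a progesterone-releasing vaginal device (Eazi-Breed), and then of the prostaglandin F2α analog Estrumate after 96 hours and again at 120 hours, when the device was removed. Insemination with Holstein semen followed 48 hours later, and heifers were then drawn at random for a day of biopsy. Day 5 and day 18 therefore differ, by design, in the time since insemination alone. Whether a given heifer carried an embryo is not recorded in the labels at hand, and no non-inseminated heifers were analysed here. Day 0, which the labels also name, was not analysed here.

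Endometrium is made of surface and glandular epithelium over a stroma of fibroblasts, vessels and leukocytes. Its glands secrete the histotroph, the fluid that feeds the free-floating embryo, under control of the ovarian steroids estradiol and progesterone. In cattle the first of these days falls in the early luteal phase, while progesterone is still rising. The later one falls in the period when an elongating conceptus, where there is one, releases interferon tau and so keeps the corpus luteum from regressing. Genes carry only Ensembl IDs in the files, and 0 of the 27607 IDs matched the table of RefSeq genes at hand. Genes are therefore given by ID, nothing is said of their function, and the tissue label could not be checked against marker genes. Since the biopsies are bulk tissue, a lower level of a gene can mean fewer cells of a type or less RNA per cell, and these cannot be told apart.

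The 8 libraries held between 18959090 and 21757330 reads in genes, and 15091 to 15803 IDs per library had at least 10 reads. Libraries of day 5 lay somewhat closer to each other than to those of day 18, whereas libraries of day 18 did not lie closer to each other than to those of day 5. The measure used was the number of tested genes, of 16331, that lay more than 4-fold apart between a pair of libraries, on the scale of log2 CPM (CPM being reads scaled to a common library total, here with a prior count of 2 on the log scale). Within day 5 the 6 pairs had 256 to 2428 such genes with a median of 1166, and within day 18 they had 556 to 2351 with a median of 1591. The 16 pairs across the 2 days had 152 to 2654 with a median of 1488. Pearson correlations over the same genes gave the same order, with medians of 0.919 within day 5, 0.890 within day 18 and 0.898 across.

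A set of 3 libraries stood apart from the others of their day, and they are given here before any gene. Day 5 replicate 3 lay more than 4-fold from each other day 5 library in 1916 to 2428 genes, whereas the other 3 lay apart from each other in 256 to 416. Day 18 replicate 2 lay apart from the other day 18 libraries in 1837 to 2351 genes. These 2 libraries also had the lowest scaling factors of the 8, 0.748 and 0.836. Day 18 replicate 3 lay closest to the other day. It differed from day 5 replicates 1, 2 and 4 in 306, 290 and 152 genes, and from day 18 replicates 1 and 4 in 1080 and 1345. Day 18 replicates 1 and 4 differed from each other in 556 genes. The groups are those of the labels throughout, and results are given with and without these 3 libraries. Because the libraries were singled out on the same counts, results without them are descriptions of the remaining libraries and not independent evidence.

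**Figure D1:**
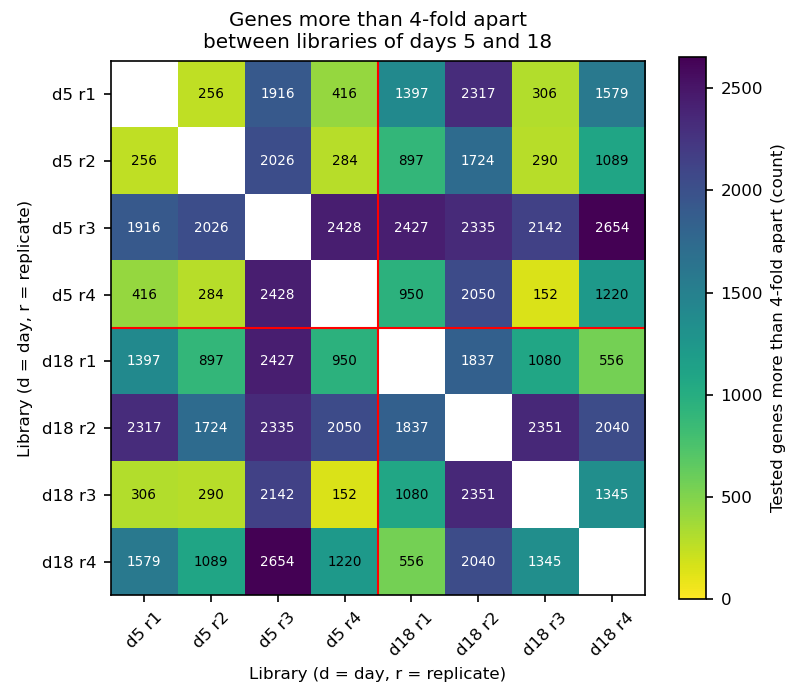
Number of tested genes that lay more than 4-fold apart between each pair of the 8 libraries, which are on both axes (d = day, r = replicate; red lines part the days). Day 18 replicate 3 shows 152 to 306 genes against day 5 replicates 1, 2 and 4, fewer than the 1080 to 2351 it shows against the other day 18 libraries.

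The first question was which genes separate the days. With all libraries, 0 of 16331 genes (0.0%) passed edgeR's quasi-likelihood test at the adjusted threshold of 0.05, the smallest adjusted p being 0.199. Without adjustment 2230 genes, 13.7%, had a p below 0.05. In a fit of the 8 libraries of these days alone, where days 10 and 14 do not add to the estimate of the spread, that number was 865 of 15686 genes (5.51%), close to the 5% that the threshold gives by itself. More of the 2230 were higher on day 18 (1323, 8.1%) than lower (907, 5.55%). DESeq2 called 184 genes (1.13%), 134 higher and 50 lower, and limma-voom called 0 after adjustment and 3074 before it. With day 10 replicate 4 left out edgeR called 1 gene, and with day 18 replicate 3 left out it called 864 (5.23%), 424 higher and 440 lower. The unadjusted count went to 4175 (25.3%) without day 18 replicate 3 and to 1317 without day 18 replicate 4. In counts simulated at these depths, the same test recovered 78 of 100 genes given a 4-fold change on day 18, but 18 of 100 given a 2-fold change. The changed genes were drawn from those with a mean log2 CPM of at least 1, so neither number covers genes of lower level. The simulation had no outlying library, and real libraries like those here could lower both numbers.

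A simpler count asked for how many genes all 4 libraries of one day lay above all 4 of the other. This held for 347 of 16331 genes, 2.12%, with 207 (1.27%) above day 5 and 140 (0.857%) below it. With days assigned to libraries at random, a gene without ties would part 4 against 4 with a probability of 0.0286. The share found was not above this. The count is a description, used here to choose genes, and does not show on its own that the days differ. Most of these differences were small, with a median size of 0.68 on the log2 scale for the higher and 0.66 for the lower genes, and 66 and 45 of them reached 2-fold. Among the 207 higher genes, 84 had means on days 10 and 14 that both lay between the ends, 41 had both middle means above both ends, and 4 had them below. Among the 140 lower genes the numbers were 64 between, 17 below and 8 above. The remaining genes had only 1 middle mean between the ends or had the middle means on opposite sides.

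Of the genes higher in every day 18 library, 112 had an unadjusted edgeR p below 0.05 and a mean log2 CPM of at least 1. Among these, ENSBTAG00000007554 had the largest difference. Its level was 71.3, 70.9, 58.2 and 42.1 CPM in day 5 replicates 1 to 4, and 375, 155, 83.0 and 2895 CPM in day 18 replicates 1 to 4. The days did not overlap, but the lowest day 18 library, replicate 3, lay just above the highest day 5 library, and replicate 4 was far above the rest. The means were 60.6 ± 13.8 and 877 ± 1351 CPM (SD, n = 4 each), and the fitted log2 difference was 3.85 ± 0.88 (SE), for which edgeR gave an adjusted p of 0.314. The size rests on day 18 replicate 4, without which the log2 difference was 1.75 (edgeR adjusted p 0.613). Without day 18 replicate 3 it was 4.215 (edgeR adjusted p 0.0242). ENSBTAG00000017733 was less dispersed. It stood at 4.20, 1.89, 2.10 and 3.16 CPM on day 5 and at 82.0, 7.29, 37.2 and 30.9 CPM on day 18, so that all 4 day 18 libraries, replicate 3 among them, were above all day 5 libraries. Its log2 difference was 3.79 ± 0.65 (SE), with an edgeR p of 0.000103 that became 0.314 after adjustment. Without day 18 replicate 3 the log2 difference was again 3.79, and the gene's own edgeR p was 0.000224, which is not smaller. Its adjusted p was then 0.0211, since the adjustment depends on the p of all tested genes. The adjusted p of DESeq2 was 6.48e-05 with all libraries. The gene was as low on day 10 as on day 5, at 1.30 to 5.26 CPM, and stood at 13.9 to 93.4 CPM on day 14.

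Of the genes lower in every day 18 library, 89 met the same limits. ENSBTAG00000015366 had the largest difference among them, and it rests on 1 library. Day 5 replicate 3 was at 359.6 CPM and the other day 5 libraries at 35.9, 28.6 and 20.4, while the day 18 libraries were at 6.47, 1.62, 18.7 and 11.1 CPM. The fitted log2 difference was -3.55 ± 1.04 (SE; edgeR adjusted p 0.314, DESeq2 adjusted p 0.0322). It was -1.57 without day 5 replicate 3 (edgeR adjusted p 0.437) and -1.68 ± 1.01 without the 3 libraries that stand apart (edgeR adjusted p 0.307). ENSBTAG00000046277 was at 7.998, 4.65, 11.5 and 15.9 CPM on day 5 and at 0.365, 0.405, 2.55 and 0.490 CPM on day 18. Here day 18 replicate 3 lay between the other day 18 libraries and day 5. The fitted log2 difference was -3.37 ± 0.67 (SE; edgeR adjusted p 0.314, DESeq2 adjusted p 0.00149). Without that library it was -4.58, and edgeR's adjusted p was 0.0104. Days 10 and 14 were at 0.752 to 2.995 and 0.0974 to 0.552 CPM, so this gene was already low in the middle of the course.

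**Figure D2:**
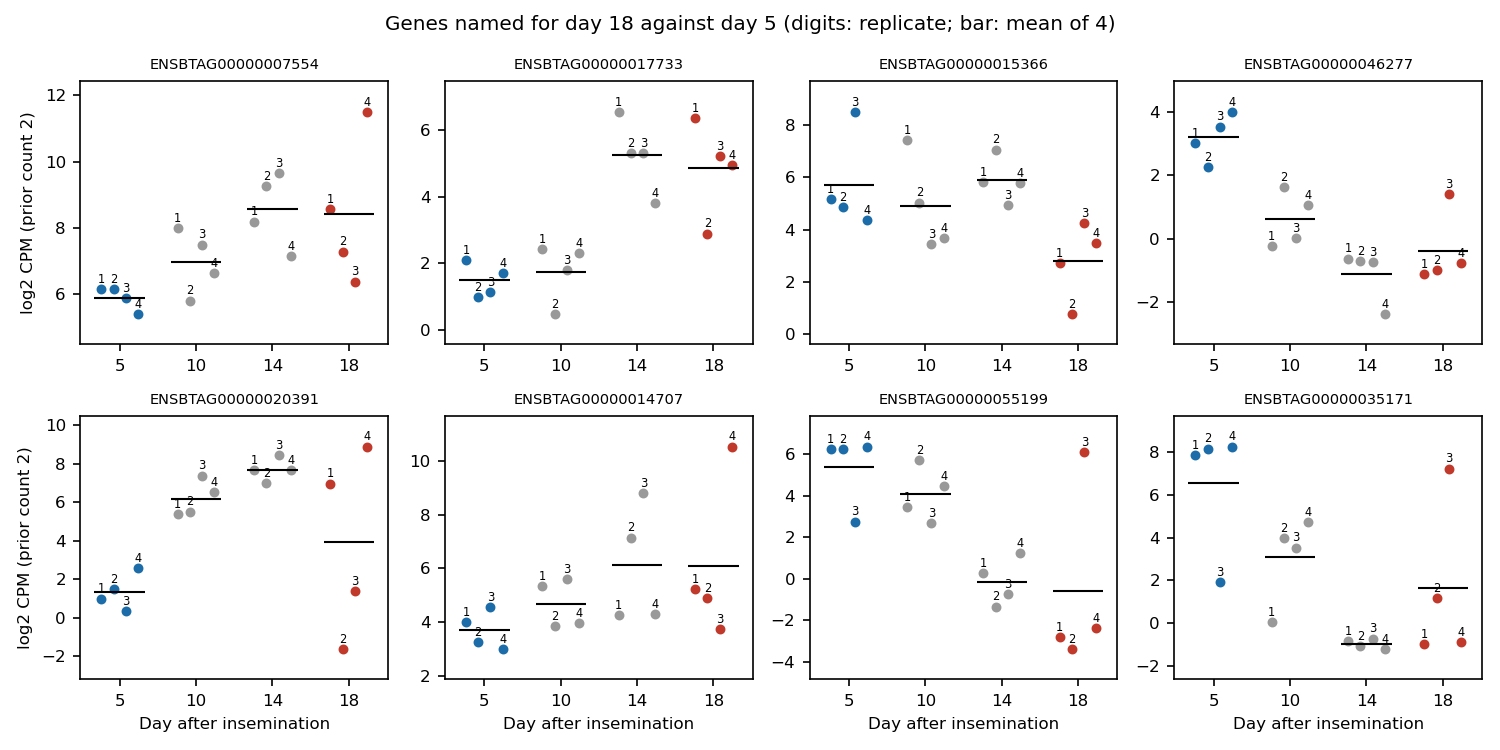
Level of the 8 genes named for day 18 against day 5 (log2 CPM, vertical axis) in every library by day after insemination (horizontal axis); digits are replicate numbers and bars the mean of 4 libraries. The upper row holds genes chosen on all 8 libraries, whose days 5 and 18 do not overlap, and the lower row genes chosen without the 3 libraries that stand apart.

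Which library closed the gap between the days was counted next, by leaving out 1 library at a time at fixed scaling. Without day 18 replicate 3, a further 2017 genes no longer overlapped, 1031 higher and 986 lower on day 18. The next numbers were 732 for day 5 replicate 3, 572 for day 18 replicate 2 and 536 for day 5 replicate 4. For the other 4 libraries they were 283 (day 5 replicate 2), 215 (day 18 replicate 1), 122 (day 5 replicate 1) and 92 (day 18 replicate 4). Leaving out any library makes separation easier, so the difference between libraries is what these numbers show.

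Without the 3 libraries, 3 of day 5 and 2 of day 18 remained. In a fit on these and the middle days edgeR called 2442 of 16723 genes, 14.6%, 1208 (7.22%) up and 1234 (7.38%) down on day 18, and 1521 differed at least 2-fold. Without only day 5 replicate 3 and day 18 replicate 3 it called 1757 (10.7%; 866 up, 891 down), and 1383 genes were called in both. Before adjustment the counts were 5095 (30.5%) without 3 and 4674 (28.4%) without 2 libraries. The genes without overlap between the days were 2393 (14.5%) without day 18 replicate 3, 4596 (27.9%) without 2 and 7827 (46.8%) without 3 libraries, a count that fewer libraries raise by themselves. Of the 2442, 2413 had also been tested with all libraries, and 2336 of these had the same sign there, although they share 5 of the 8 libraries. Of the 347 genes that separated all 8 libraries, 98 were among the 2442.

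The 2413 genes give each remaining library a place between the days, with 0 at the mean of day 5 replicates 1, 2 and 4 and 1 at the mean of day 18 replicates 1 and 4. The genes were called without the 3 libraries, although the filter on low counts that left 2413 used all 16. Day 18 replicate 3 was left out because it lay with day 5, so its place describes that choice and is no separate support for it. Day 18 replicate 3 had a median place of -0.024 over the 1194 higher genes and 0.032 over the 1219 lower genes, and it was nearer to day 5 for 97.5% and 95.7% of them. Day 18 replicate 2 lay midway, at 0.516 and 0.546. Day 5 replicate 3 lay at 0.311 for the higher and 0.580 for the lower genes. Day 10 libraries lay at 0.381 to 0.694 for the higher genes and 0.460 to 0.695 for the lower. Day 14 libraries lay at 0.710 to 0.953 and at 0.777 to 0.870. Every day 14 library thus had a median place further toward day 18 than every day 10 library, on the same genes.

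**Figure D3:**
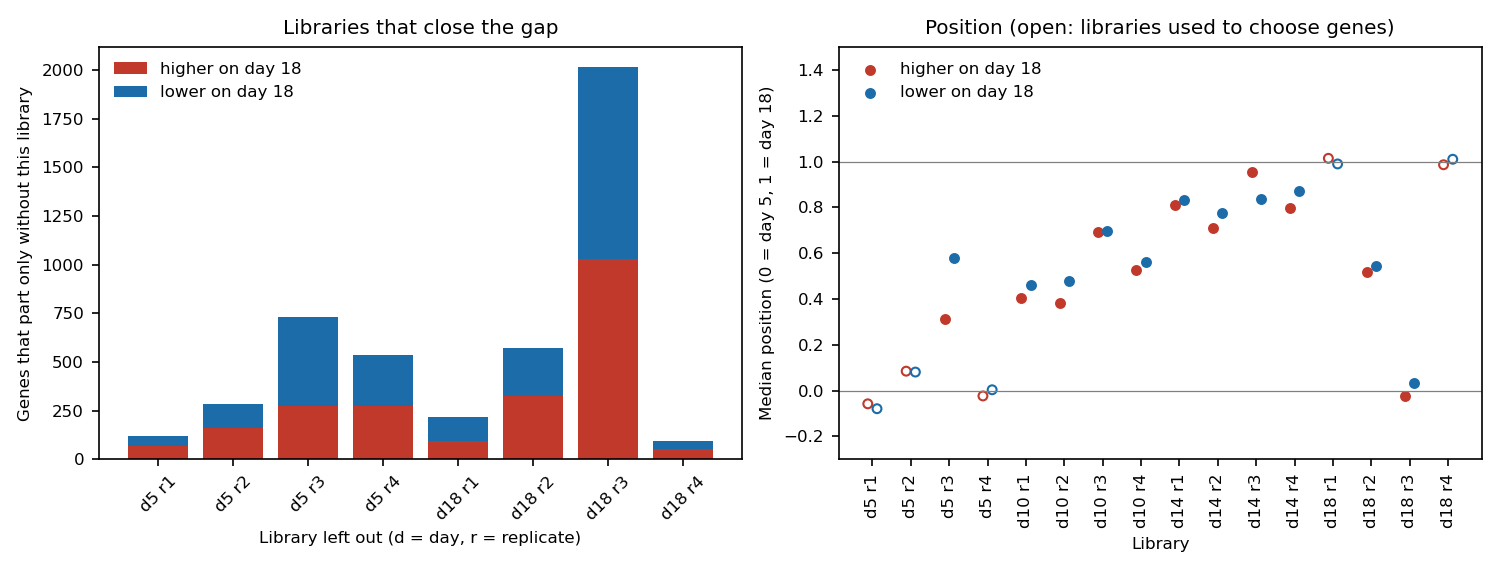
Left, number of genes whose days 5 and 18 parted only when the library on the horizontal axis was left out; right, median place of each library between day 5 (0) and day 18 (1) over the genes called without the 3 libraries, with open symbols for the libraries that set the scale. Day 18 replicate 3 has the tallest bar, 2017 genes, and lies near 0 on the right.

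Without the 3 libraries, genes were ranked under the same limits, no overlap included, taken on the remaining libraries. Among them, ENSBTAG00000020391 had the largest rise. It stood at 1.90, 2.72 and 5.90 CPM in day 5 replicates 1, 2 and 4 and at 125 and 476 CPM in day 18 replicates 1 and 4, a log2 change of 6.43 ± 0.72 (SE; edgeR adjusted p 0.00160). The left-out libraries were at 1.19 CPM for day 5 replicate 3, 0.232 for day 18 replicate 2 and 2.55 for day 18 replicate 3. Both left-out day 18 libraries thus lay within or below the range of day 5, and with all libraries edgeR's adjusted p was 0.314. All day 10 and day 14 libraries were above them, at 41.3 to 167 and 127 to 351.5 CPM. ENSBTAG00000014707 rose by a log2 change of 6.09 ± 1.36 (SE; edgeR adjusted p 0.0231). Its values were 15.9, 9.58 and 8.03 CPM on day 5 and 37.9 and 1473 CPM in day 18 replicates 1 and 4, so the size of the change comes from 1 library. It was at 23.8 CPM in day 5 replicate 3 and at 29.8 and 13.3 CPM in day 18 replicates 2 and 3, and edgeR's adjusted p was 0.314 with all libraries.

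Among the fallen genes, ENSBTAG00000055199 had 4855 reads in day 5 replicates 1, 2 and 4 together and 3 reads in day 18 replicates 1 and 4. Scaled for depth, the ratio was 1100, with an exact binomial 95% interval of 376 to 5330 that covers counting error alone. The edgeR adjusted p without the 3 libraries was 0.00248, and with all libraries it was 0.593, with a log2 difference of -1.81. The gene was at 75.5, 75.6, 6.65 and 82.2 CPM in the 4 day 5 libraries and at 0.0456, 0, 68.3 and 0.0979 CPM in the 4 of day 18. Day 18 replicate 3 had the level of day 5, while replicate 2, which was also left out, had 0 reads. ENSBTAG00000035171 had a log2 change of -9.30 ± 1.07 (SE; edgeR adjusted p 0.00192), from 229.8, 284.8 and 304.6 CPM to 0.410 and 0.441 CPM. It was at 149 CPM in day 18 replicate 3, at 2.14 in day 18 replicate 2 and at 3.71 in day 5 replicate 3, and with all libraries the log2 difference was -2.44 with an edgeR adjusted p of 0.470. Each of these 4 genes was also called without day 18 replicate 3 alone. That library was already left out when the genes were chosen, so these calls are no separate support. None of the 4 was called without only day 5 replicate 3 or only day 18 replicate 2. In those fits the 2 fallen genes had log2 differences of -1.41 to -2.84. For both fallen genes the mean level went down from day 5 to day 10 and again to day 14, from 205.7 to 13.7 and 0.424 CPM for ENSBTAG00000035171 and from 59.98 to 22.7 and 1.04 CPM for ENSBTAG00000055199.

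The second question was what the days share. A gene was counted as shared when the 95% interval of its log2 difference between day 18 and day 5 lay within 2-fold in either direction, since a p that misses its threshold does not show likeness. This held for 7930 of 16331 genes, 48.6%. The other 8401 were neither called nor shown to be alike. These intervals use a spread estimated over all days. With all libraries, the spread was larger on days 5 and 18 than in the middle of the course, so the intervals may be too narrow. In the fit of only days 5 and 18, the limit was met by 6512 of 15686 genes. In the fit of all days, the share went up with the level of the genes and then levelled off. It was 6.52% of genes under a mean of 1 log2 CPM, 36.2% between 1 and 4, 68.7% between 4 and 7 and 66.2% at 7 or more. The shared genes took up 49.2% to 59.2% of the gene reads of day 5 libraries and 54.4% to 62.2% of those of day 18. In 4472 genes all 8 libraries lay within a 2-fold range of each other. Detection was also largely common. With 10 reads in every library of a day as the limit, 14298 IDs were detected on day 5 and 14234 on day 18, and 13769 were in both, 96.3% and 96.7% of each set. No ID had 0 reads throughout one day and at least 10 in every library of the other.

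Of the 7930 shared genes, 6066 also met the limit without the 3 libraries, and 780 (9.84%) were called as different there, against 19.4% of the genes that were not shared. The shared gene with the highest mean CPM, ENSBTAG00000012683, kept its level. It was at 2770, 2917, 3578 and 2870 CPM on day 5 and at 3326, 3900, 2535 and 2602 CPM on day 18. Its log2 difference was 0.027 with an interval of -0.40 to 0.45, and it was 0.060 without the 3 libraries. The next, ENSBTAG00000043558, was shared by the width of the limit only, with a log2 difference of -0.16 and an interval of -0.96 to 0.64. It was at 3216, 2335, 3670 and 2751 CPM on day 5 and at 1560, 4919, 3215 and 1052 CPM on day 18. Day 18 replicates 1 and 4 were below all day 5 libraries and replicate 2 above them, and without the 3 libraries the gene fell, with a log2 change of -1.08 ± 0.24 (SE; edgeR adjusted p 0.0155).

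**Figure D4:**
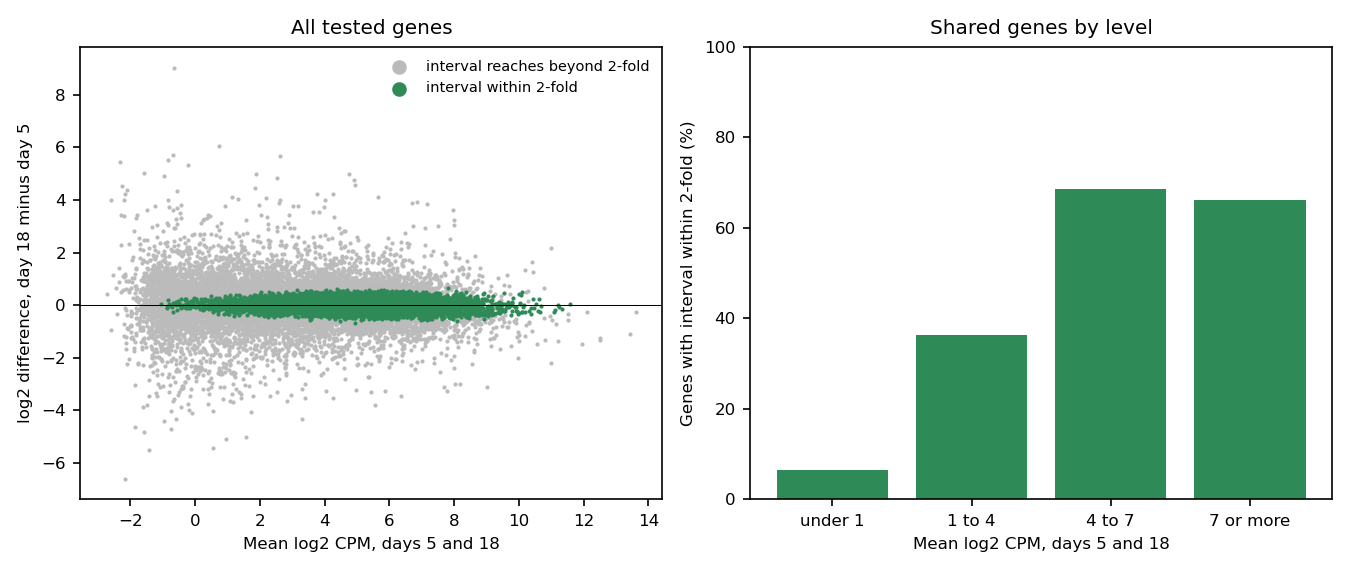
Left, log2 difference between day 18 and day 5 of each tested gene (vertical) against its mean log2 CPM over the 8 libraries (horizontal), with genes whose 95% interval lies within 2-fold in green; right, share of such genes by mean level. The share is 6.52% in the lowest class and 68.7% and 66.2% in the upper 2.

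The ends were next set against the middle of the course. The contrast was the mean of days 5 and 18 against the mean of days 10 and 14. It used the same fit and the same libraries. It does not test whether the ends share a level, since either end or a few libraries can carry a mean. Here 811 genes passed the adjusted threshold, 4.97% of those tested, with 548 (3.36%) higher and 263 (1.61%) lower at the ends, and 269 and 108 of these differed at least 2-fold. The day 18 to day 5 interval lay within 2-fold for 49.3% of the higher and 56.3% of the lower genes, beside 48.6% of all tested genes. In 54 of the higher and 32 of the lower genes all 8 libraries of the ends lay apart from all 8 of the middle, which held for 61 (0.374%) and 35 (0.214%) of all 16331 tested genes. In 535 of the 548 higher and 259 of the 263 lower genes, the mean log2 CPM of each end lay beyond both middle means. The called genes were chosen by the same contrast, so nothing is read from these counts. Genes named above as lower on day 18 were among the higher ones. ENSBTAG00000046277 (log2 1.88, edgeR adjusted p 0.0456) had a day 18 mean of 0.953 CPM, below its day 10 mean of 1.66. ENSBTAG00000035171 (log2 5.19, edgeR adjusted p 0.0379) stood at 149 CPM in day 18 replicate 3 but at 0.410, 2.14 and 0.441 CPM in replicates 1, 2 and 4. Without the 3 libraries that stand apart 420 genes were called, 241 higher and 179 lower, and 203 of the 548 and 102 of the 263 were among them.

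The day 18 libraries did not share this pattern evenly. Over the 548 higher genes the median log2 difference from the middle libraries was 0.84 to 0.98 in the 4 day 5 libraries. It was 1.30 in day 18 replicate 2 and 0.86 in replicate 3, but 0.22 and 0.33 in replicates 1 and 4. Over the 263 lower genes it was -0.86 to -1.19 on day 5, -1.06 and -0.93 in day 18 replicates 2 and 3, and -0.43 and -0.50 in replicates 1 and 4. These genes were chosen on these libraries, and the values describe the choice. The share of reads without a gene feature moved with the pattern: it was 23.1% to 26.3% on day 5, 24.6% and 24.7% in day 18 replicates 2 and 3, 30.4% and 30.7% in day 18 replicates 1 and 4, and 27.6% to 33.4% on days 10 and 14. The 10 most abundant genes of a library took up 6.51% to 10.4% of its gene reads on day 5, 11.9% and 8.33% in day 18 replicates 2 and 3, 3.74% and 4.05% in replicates 1 and 4 and 4.18% to 8.18% in the middle. The part of either measure in the result was not tested.

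The lower genes with the largest difference separated the ends from the middle in every library. ENSBTAG00000021118 was at 0.513, 0.184, 0.280 and 0.0944 CPM on day 5 and at 11.99, 0, 0.314 and 1.91 CPM on day 18, against 15.3 to 159 CPM on day 10 and 16.7 to 117 CPM on day 14. Ends and middle differed by a log2 of -6.58 ± 0.85 (SE; edgeR adjusted p 0.00781). The day 18 value was highest in replicate 1, which lay near the lowest middle library. ENSBTAG00000050427 was at 3.85, 2.62, 1.75 and 2.55 CPM on day 5 and at 6.97, 1.33, 2.15 and 8.18 CPM on day 18, with 17.3 to 87.4 CPM in the 8 middle libraries. Here the difference was -3.53 ± 0.39 (SE; edgeR adjusted p 0.00295), and that of day 18 from day 5 was 0.79 ± 0.57 (edgeR adjusted p 0.524). Both genes passed in all 27 alternatives run for them.

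The higher genes with the largest difference rested on 1 library of each end. ENSBTAG00000002430 was at 64.2 CPM in day 5 replicate 2 and 257 CPM in day 18 replicate 2, but the other 6 libraries of the ends lay between 0.0490 and 3.15 CPM. The 8 middle libraries were at 0.243 to 0.584 CPM, so the ends and the middle overlapped. The fitted value of 6.35 ± 1.42 (log2, SE; edgeR adjusted p 0.0402) was 2.50 without day 18 replicate 2 (adjusted p = 0.142) and 4.63 without day 5 replicate 2 (adjusted p = 0.0755). The call was also lost without day 5 replicate 1 (adjusted p = 0.0554) and without any 1 of the 8 middle libraries (0.0626 to 0.0907). With limma-voom the value was 2.29 (adjusted p 0.562), and without the 3 libraries that stand apart it was 2.00 (edgeR adjusted p 0.458). ENSBTAG00000039483 had the same shape, with 5.53 CPM in day 5 replicate 2, 32.7 CPM in day 18 replicate 2 and 0 to 1.26 CPM in the other 6 libraries of the ends, and 0 to 0.276 CPM in the middle. Its fitted log2 difference was 6.27 ± 1.70 (SE; edgeR adjusted p 0.0315). It was 3.65 without day 18 replicate 2 (edgeR adjusted p 0.0583), 2.35 with unstranded counts (0.0922), 2.98 without the 3 libraries (0.231) and 3.60 with limma-voom (adjusted p 0.0837). The call was also lost without day 5 replicate 2 (0.0555) and without any 1 of the middle libraries (0.0508 to 0.0745).

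The count of 811 moved by over 1.5 times with every library but day 5 replicate 3, without which it was 1015. Leaving out day 5 replicates 1, 2 or 4 gave 288, 371 and 467 genes. For day 10 replicates 1 to 4 the counts were 454, 117, 82 and 61. Without day 14 replicates 1 to 4 it was 97, 531, 165 and 90. It was 428 and 528 without day 18 replicates 2 and 3, but 1703 and 1610 without day 18 replicates 1 and 4. The last 2 are the libraries of the ends with the medians nearest to the middle.

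**Figure D5:**
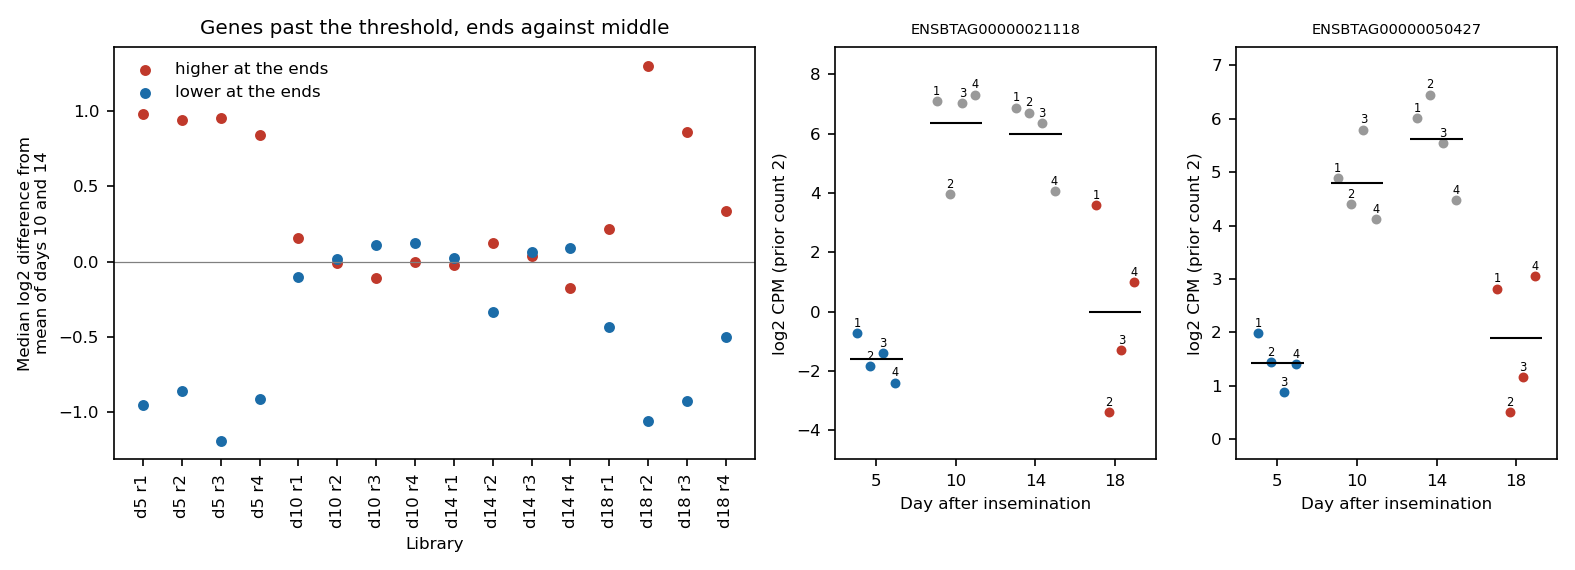
Left, median log2 difference of each library from the mean of days 10 and 14 (of the other 7 libraries for a middle library) over the 548 genes higher and 263 genes lower at the ends; centre and right, log2 CPM by day of the 2 lower genes with the largest difference, with replicate numbers and means of 4. Day 18 replicates 1 and 4 lie nearer to 0 than the other libraries of the ends.

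With all libraries, the spread between animals was larger at the ends, where the 3 libraries that stand apart lie. The median SD of a gene over the 4 libraries of a day was 0.44 log2 CPM on day 5 and 0.51 on day 18, against 0.28 on day 10 and 0.33 on day 14. In 9731 of 16331 genes the SD was larger on day 18 than on day 5. The SDs of days 5 and 18 include the 3 libraries. Without day 5 replicate 3, day 5 pairs lay more than 4-fold apart in 256 to 416 genes. Day 10 pairs lay apart in 196 to 522 and day 14 pairs in 280 to 829. Day 18 replicates 1 and 4 lay apart in 556.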

How the data were processed

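The authors deposited raw counts of reads per gene, 1 table per library, neither normalised nor pooled, in the layout of STAR's gene counts. The submitters' processing notes name FastQC, STAR and edgeR. Versions, genome build and annotation were not given in the sources used here. The stranded column used held 98.3% to 98.6% of the gene reads of both stranded columns. The 4 summary lines name no gene and stayed out of library sizes and tests. Among them, reads with no gene feature made up 23.1% to 30.7% on days 5 and 18. The line for reads mapped to several places is 0, so values of near-identical genes are uncertain.

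After filterByExpr by day and TMM scaling, all 16 libraries entered 1 robust quasi-likelihood model of edgeR, with Benjamini-Hochberg adjustment over 16331 genes. The SE is the Wald standard error with the quasi-dispersion, and intervals use its t quantile. The procedure was tested on simulated data. The software was edgeR 4.0.16, DESeq2 1.42.0 and limma 3.58.1 in R 4.3.3, with tables made in Python 3.11.15 (pandas 2.3.3, NumPy 2.4.6, SciPy 1.17.1) and plots in Matplotlib 3.10.9. Alternatives were other scalings, filters, strand, tools, the replicate block and libraries left out.

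Genes were named, 2 per direction since IDs have no symbols, by size of the log2 difference. For the days they needed an unadjusted p below 0.05, no overlap and a mean log2 CPM of 1 or more, both on all libraries and without 3. For the ends they needed to pass the threshold, and shared genes were taken by highest mean CPM. The 29 gene and marker lists could not be used, since none of their symbols is in the files. The comparison, the lists and the libraries left out were chosen with earlier results of these data known. Within day 5 and within day 18, libraries differed by more than sampling noise (smallest chi-square per degree of freedom 41.2). The labels give no batch or date.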

Additional observations from a re-analysis of the deposited data

Results flagged for a closer look

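Among 66 groups of 4 libraries (5 library measures on days 5 and 18, and each named gene on every day), 1 library lay far from the other 3 in 8 groups. In groups not chosen on the data, chance gives about 1 in 20. The named genes were chosen on these same libraries, some of them without libraries flagged here. The groups also reuse genes and libraries, so the 8 is not read against that rate. For unmapped reads the far library was day 5 replicate 3, with 9.42% against 8.40% to 8.46% in the rest of its day. On the log2 CPM scale, ENSBTAG00000055199 stood at 2.75 in day 5 replicate 3 and at 6.24 to 6.36 in the others of day 5. ENSBTAG00000035171 stood at 1.93 there and at 7.845 to 8.25 in the others. In day 18 replicate 3, ENSBTAG00000055199 was at 6.095 while the other day 18 libraries were at -3.37 to -2.36. In the same library ENSBTAG00000046277 was at 1.41, and at -1.12 to -0.77 in the others. The lowest day 14 value of ENSBTAG00000046277, -2.37 in replicate 4, lay below -0.72 to -0.62. ENSBTAG00000021118 was at 3.95 in day 10 replicate 2 and at 7.025 to 7.31 in the rest of that day. For ENSBTAG00000012683 day 10 replicate 3 was highest, at 11.99 beside 11.60 to 11.65.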

How the results depend on the processing

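For day 18 against day 5, the adjusted count of 0 also held with RLE or upper-quartile scaling, no filter, the stricter filter, unstranded counts, no robust estimation, a fit of only these days, the replicate block and limma-voom. It was 184 with DESeq2, 1757 when day 5 replicate 3 and day 18 replicate 3 were left out, 2442 when the 3 outlying libraries were, and 0 to 864 with 1 of the 16 libraries left out. The unadjusted count of 2230 was 865, or 5.51% of the genes tested, in the fit of only these days, 4674 without those 2 libraries, 5095 without all 3, and 1317 to 4175 with 1 library left out; more genes were higher than lower in 26 of 28 alternatives. The genes without overlap, 347, were 4596 and 7827 without the 2 or 3 libraries and 347 to 2393 with 1 left out, where fewer libraries also make separation easier. The shared genes stayed within 1.5 times of 7930 in all alternatives fixed beforehand. The lowest count was 6512 of 15686 genes, in the fit of only these days. The shared genes were 3376 with an interval within 1.5-fold, a width chosen after seeing the data. The contrast of ends and middle, 811 genes, gave 503 with no filter, 1453 with limma-voom, 2325 with DESeq2, 420 without the 3 libraries, and 61 to 1703 with 1 library left out; more genes were higher than lower in 24 of 27. No named gene changed sign, in the result it was named for, in the alternatives run for it. A replicate block in edgeR gave 0 genes for day 18 against day 5, and 129 for the ends against the middle. Under it both genes named as higher at the ends lost their calls: ENSBTAG00000002430 was at 2.65 (adjusted p 0.263) and ENSBTAG00000039483 at 5.51 (0.0614), while both lower ones kept theirs. The numbers do not pair these days: deviations of same-numbered libraries of days 5 and 18 correlated at -0.26 to 0.080 across genes, and none matched its own number best. Days 5 and 10, which both enter the contrast of ends and middle, alone had all 4 above 0.1 (0.121 to 0.322). DESeq2 gave 528 adjusted p as NA. For the 2 genes named as higher at the ends there was no value with DESeq2 or with the stricter filter. This left 25 alternatives for each of them. At this depth and spread, the median SE of a log2 difference was 0.32, and differences near 2-fold often fell short of the threshold.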
